A study of Mus musculus with 12 samples.

Results

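The 10 genes described here encode the core of the mouse microRNA and RNA interference pathway, namely *Ago1*, *Ago2*, *Ago3*, *Ago4*, *Dicer1*, *Drosha*, *Dgcr8*, *Xpo5*, *Tarbp2* and *Tnrc6a*. They were chosen by symbol and by no rule on measured values, although earlier results of these data were known. All 10 were found among the 42450 genes of the count table. All 10 also passed the filter on low counts, which kept 19410 genes. PolyA+ RNA was sequenced from wild-type E14tg2a.4 cells, a male mouse embryonic stem cell (ESC) line that is 1 clone, grown without feeder cells on gelatine and with leukemia inhibitory factor. The cells received 50 nM of siRNA duplexes against *Srrm2*, which encodes a nuclear speckle and splicing factor (Srrm2-KD), or against firefly luciferase Gl2, which these cells do not encode (Gl2-KD). They were harvested at 24 h after 1 transfection, or at 72 h after a repeat transfection with the same duplexes, so that the 72 h cultures had received 2 transfections. Each of the 4 groups held 3 libraries, numbered here as experiments 1 to 3, which makes 12 libraries in all. Every culture contained a transfected siRNA, so no library shows these genes without siRNA. Time, the number of transfections and the time spent in serum-free medium changed together and cannot be told apart.

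MicroRNAs are made in steps. In the nucleus, the RNase III enzyme Drosha and its RNA-binding partner Dgcr8 cut a hairpin out of a long primary transcript. Exportin 5, the product of *Xpo5*, carries the hairpin to the cytoplasm, where Dicer and its partner Trbp, the product of *Tarbp2*, cut it into a short duplex. One strand is loaded into an Argonaute protein, which recruits a GW182 protein such as Tnrc6a, and through it deadenylases, to the matching mRNA. A synthetic siRNA duplex enters at the Argonaute step, and Ago2 is the Argonaute that slices a fully matched target. In mouse ESC the abundant microRNAs include the miR-290-295 family, while maturation of let-7 is held back by Lin28 proteins.

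The libraries held between 73933196 and 153343831 estimated counts. Levels are given as CPM, the counts per 1000000 counts of a library after scaling by the trimmed mean of M-values (TMM). *Srrm2* was the check of the labels. In Gl2-KD it stood at 911, 496 and 449 CPM at 24 h and at 962, 479 and 442 CPM at 72 h, in experiments 1, 2 and 3 in that order. In Srrm2-KD it stood at 517, 154 and 199.8 CPM at 24 h and at 461, 182 and 217 CPM at 72 h. It was lower in every experiment, by −1.22 on the log2 scale at 24 h (SE 0.14, edgeR adjusted p = 0.0663), by −1.16 at 72 h (SE 0.14, adjusted p = 0.0991) and by −1.19 over both times (SE 0.10, adjusted p = 0.00254). It passed the threshold of 0.05 for adjusted p only in the mean of both times in this fit, and the 24 h and 72 h calls changed with the processing. The 6 markers of ESC (*Pou5f1*, *Nanog*, *Sox2*, *Zfp42*, *Esrrb* and *Klf4*) summed to between 3095 and 3899 CPM, against 1.05 to 3.41 CPM for 4 markers of primitive endoderm, 3.28 to 21.2 CPM for 4 of trophoblast and 3.89 to 24.6 CPM for 4 of fibroblasts. *Cdx2*, *Sox17* and *Postn*, from the last 3 lists, were each at 0 in at least 1 library.

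Before any comparison of groups, the 4 libraries of experiment 1 stood apart from the other 8. The separation followed transcript length over the whole table. The log2 difference between experiment 1 and experiments 2 and 3 had a median of −0.38 in genes whose longest transcript was at most 1000 bases. Genes of 1000 to 2000 bases had −0.40, and from there the median climbed with each class to 1.27 for the 99 genes over 14000 bases. Each comparison below was made within experiments, with the experiment as a block in the fit. The block does not remove length differences between libraries of 1 experiment. In experiment 2 at 72 h, genes over 10000 bases deviated from their mean by a median −0.48 log2 in Srrm2-KD and −0.25 in Gl2-KD. In experiments 1 and 3 the medians were 0.68 and −0.35 in Srrm2-KD, and 0.66 and −0.37 in Gl2-KD. *Ago2*, *Ago3*, *Dicer1* and *Drosha* had their widest 72 h gap between siRNAs in experiment 2. The part of length in this was not tested.

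The level of each member is given first, per kilobase (kb) of its merged exons, since CPM alone favours long transcripts. *Drosha* (ENSMUSG00000022191, chromosome 15, 12824815 to 12935291, forward strand, in GRCm38) was highest, with a median of 44.0 CPM per kb over the 12 libraries (range 31.1 to 60.1). It was above *Xpo5* (ENSMUSG00000067150, chromosome 17, 46202782 to 46243598, forward strand) in 12 of 12 libraries, and the ranges did not overlap. *Xpo5* had a median of 21.0 CPM per kb and *Tarbp2* (ENSMUSG00000023051, chromosome 15, 102518192 to 102523676, forward strand) one of 20.7 CPM per kb. These 2 neighbours were not separated, since *Xpo5* was the higher in only 4 of 12 libraries, the 4 of experiment 1.

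The middle of the order was close. *Dgcr8* (ENSMUSG00000022718, chromosome 16, 18253948 to 18289246, reverse strand) had a median of 13.0 CPM per kb, *Ago1* (ENSMUSG00000041530, chromosome 4, 126435012 to 126468583, reverse strand) 9.61 and *Ago2* (ENSMUSG00000036698, chromosome 15, 73095844 to 73184935, reverse strand) 8.72. *Dgcr8* exceeded *Ago1* in 7 of 12 libraries, and *Ago1* exceeded *Ago2* in 6 of 12, so these 3 genes had no fixed order. *Tnrc6a* (ENSMUSG00000052707, chromosome 7, 123123885 to 123195296, forward strand) followed with 5.14 CPM per kb and *Dicer1* (ENSMUSG00000041415, chromosome 12, 104687742 to 104751952, reverse strand) with 4.16 CPM per kb. *Tnrc6a* was above *Dicer1* in 12 of 12 libraries, although their ranges over all libraries overlapped.

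The remaining Argonautes were lowest. *Ago3* (ENSMUSG00000028842, chromosome 4, 126331704 to 126429556, reverse strand) had a median of 0.771 CPM per kb. *Ago4* (ENSMUSG00000042500, chromosome 4, 126489541 to 126533472, reverse strand) had a median of 0.0541 CPM per kb and rested on 25 to 91 estimated counts a library. *Ago1*, *Ago3* and *Ago4* are neighbours on the same strand. The order depended on the length used. Per kb of the mean annotated protein-coding transcript, *Tarbp2* came first (102 CPM per kb) and *Ago2* eighth (8.87 CPM per kb), while *Ago3* and *Ago4* were again last.

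**Figure D1:**
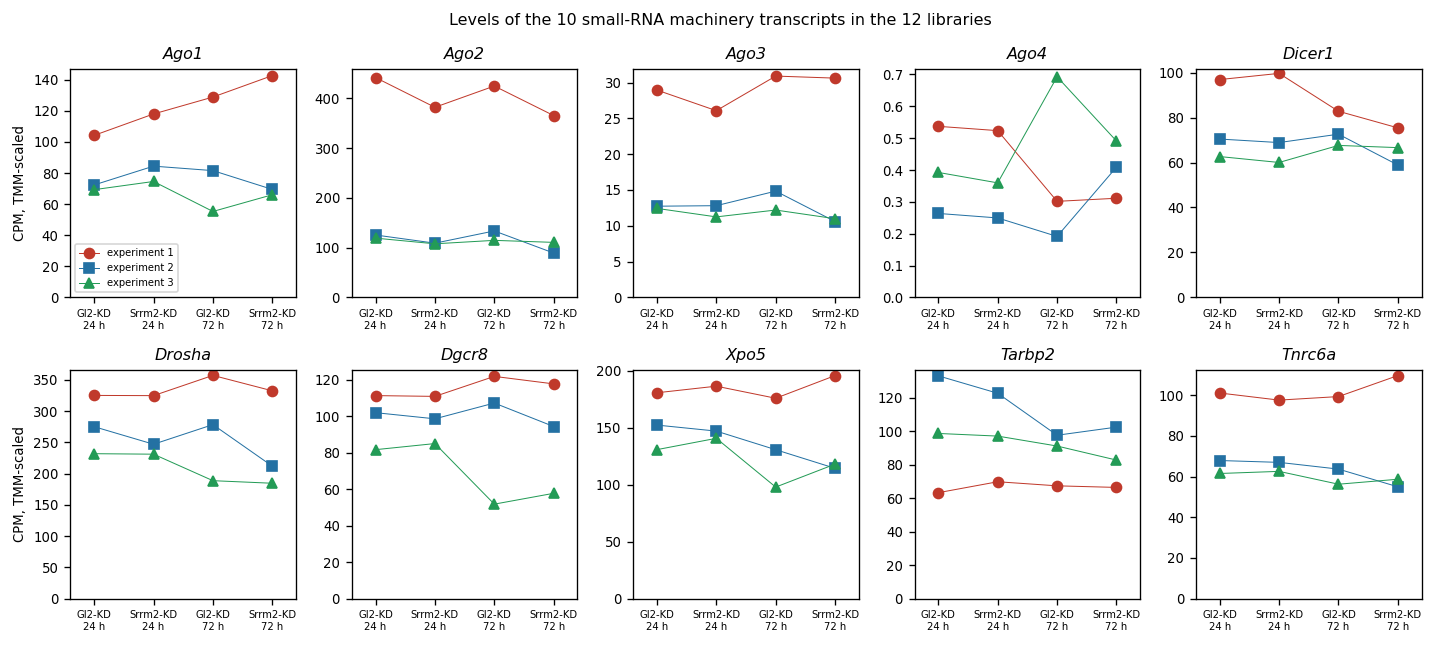
TMM-scaled CPM (vertical axis, from 0) of each of the 10 genes in the 4 groups (horizontal axis), with 1 point a library and a line joining the 4 libraries of an experiment. Experiment 1 (circles) lies above the other experiments for 8 genes, below them for Tarbp2, and among them for Ago4.

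The experiment accounted for the widest spread of nearly all members. In 8 of 10 members all 4 libraries of experiment 1 lay above the other 8, against 16.7% of all genes tested. In *Tarbp2* all 4 lay below (63.2 to 69.8 CPM against 82.7 to 133 CPM), which held for 13.7% of all genes. Only *Ago4* overlapped. *Ago2* differed most, with 366 to 442 CPM in experiment 1 and 89.3 to 134 CPM in the others, a 3.55-fold ratio of means. *Ago3*, next in size, had 26.1 to 30.9 CPM against 10.6 to 14.8 CPM, a 2.38-fold ratio.

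The members' differences followed the length of their longest transcript in part. *Ago3* (15595 bases) had a log2 difference of 1.25 and stood above 48.5% of the genes in its length class. *Ago2* (13800 bases) had one of 1.83 and stood above 91.3% of its class. *Tarbp2*, the shortest at 2732 bases, had −0.61 and stood above 17.1% of its class. After a smooth length trend was taken out of each library, 4 members still had experiment 1 wholly on one side. These were *Ago2* (0.74) and *Drosha* (0.32) above, and *Dicer1* (−0.43) and *Tarbp2* (−0.52) below. The share of all genes that did so after this step is not given here, so the count has no background. In the corrected difference *Ago2* stood above 84.0% of all genes, *Drosha* above 69.9%, *Dicer1* above 21.2% and *Tarbp2* above 16.9%. *Dicer1* thus changed sign with that step, and the other 6 members overlapped. Whether the length trend arose in the cells or in the making of the libraries was not tested.

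**Figure D2:**
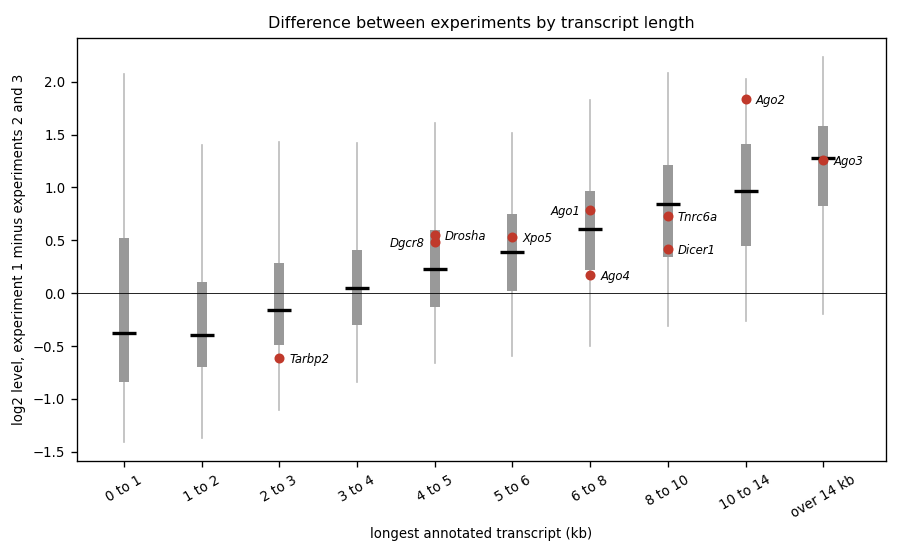
Log2 level in experiment 1 minus experiments 2 and 3 (vertical axis) for all genes by class of longest transcript in kb (horizontal axis). Black dashes are medians, thick bars the middle 50% and thin lines the 5th to 95th percentiles of the genes, and red points are the 10 members. Ago2 lies far above the median of its class and Tarbp2 and Dicer1 below theirs.

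Among the Argonautes, *Ago1* and *Ago2* made up nearly all of the summed level per kb. *Ago2* was 57.2 to 68.2% of the sum in experiment 1 and 40.7 to 51.7% in experiments 2 and 3, with no overlap. *Ago1* was 27.8 to 38.6% in experiment 1 and 43.02 to 54.8% in the others. *Ago3* stayed between 3.62 and 4.65%, against 7.57 to 9.50% per kb of the mean protein-coding transcript. *Ago4* was 0.630% at most with either length. By siRNA, the share of *Ago2* per kb of merged exons at 24 h was 68.2, 47.9 and 47.6% for the control siRNA, in experiments 1, 2 and 3, against 62.7, 40.97 and 43.7% for the *Srrm2* siRNA. At 72 h it was 63.0, 46.5 and 51.7% for the control, against 57.2, 40.7 and 47.1%. The share was lower in Srrm2-KD in 6 of 6 pairs, while the groups overlapped across experiments, and no test of the share was made. With the mean protein-coding transcript as the length, *Ago2* was 41.3 to 52.7% in experiment 1 and 26.9 to 36.1% in the others. The gap between the experiments was thus seen with both lengths, but whether *Ago1* or *Ago2* was the more abundant was not settled. The 4 Argonaute genes are similar in sequence, and reads were shared among transcripts by estimation, so the split between them carries an error that these files do not give.

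**Figure D3:**
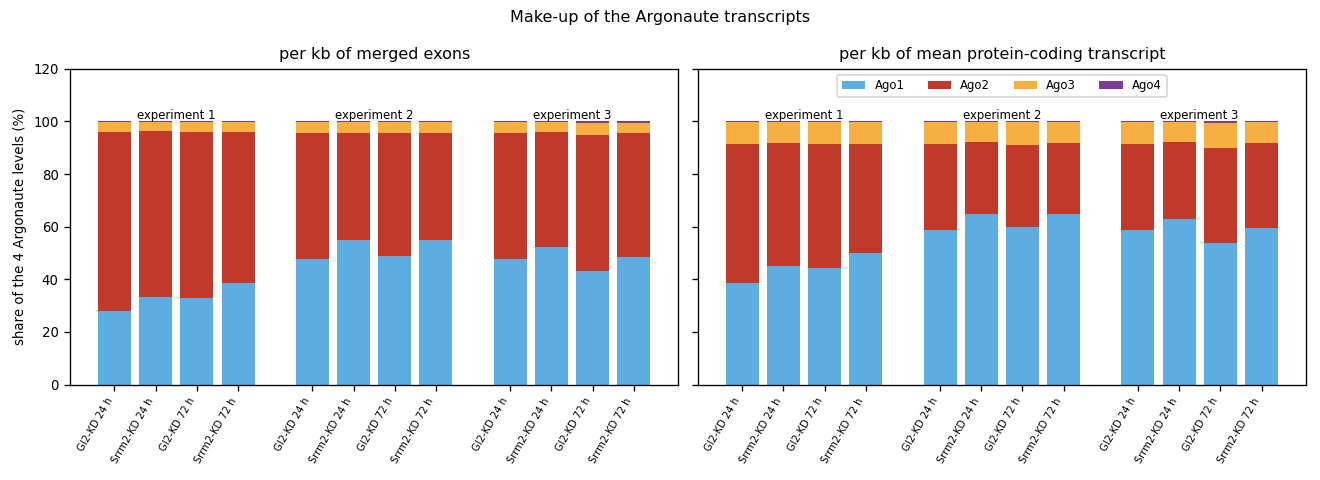
Share of the summed level of the 4 Argonaute genes (vertical axis, percent) in each library (bars, grouped by experiment), per kb of merged exons on the left and per kb of the mean protein-coding transcript on the right. Ago2 takes a larger share in the 4 libraries of experiment 1 than in the other 8 with either length.

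The knockdown was compared with its control at each time to ask whether less *Srrm2* moved these transcripts. No member passed the threshold at 24 h or at 72 h. Over all genes edgeR called 0%, that is 0 of 19410, at either time, with 508 genes (2.62%) at an unadjusted p under 0.05 at 24 h and 2498 (12.9%) at 72 h. DESeq2 called 25 and 542 genes and limma-voom 2 and 4, and neither called a member. At an unadjusted p under 0.05 there was 1 member, *Ago2* at 72 h. The median log2 change of the 10 members was −0.015 at 24 h and −0.035 at 72 h, beside 0.0054 and −0.015 over all genes tested. In bulk RNA, a lower level in every cell and fewer cells with the transcript cannot be told apart.

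*Ago2*, the slicing Argonaute, was the member with the smallest p over both times. In Gl2-KD it measured 442, 126 and 119 CPM at 24 h and 425, 134 and 115 CPM at 72 h, in experiments 1, 2 and 3. In Srrm2-KD it measured 382, 109 and 108 CPM at 24 h and 366, 89.3 and 111 CPM at 72 h. It was lower in Srrm2-KD in 6 of 6 pairs, as were 7.25% of all genes, while across experiments the groups overlapped. The log2 change was −0.19 at 24 h (SE 0.10, 95% interval −0.41 to 0.033, edgeR adjusted p = 1) and −0.28 at 72 h (SE 0.10, interval −0.50 to −0.061, adjusted p = 0.286). Over both times it was −0.23 (SE 0.071, adjusted p = 0.191, unadjusted p = 0.00691), a comparison in which 0.067% of all genes were called and 13.6% reached an unadjusted p under 0.05. Under the alternatives the mean change ran from −0.31 to −0.16 and the smallest adjusted p was 0.0683. At 72 h the gap was widest in experiment 2 (log2 ratio −0.58) and narrowest in experiment 3 (−0.052), and the fitted change was −0.15 without experiment 2 and −0.40 without experiment 3. Its exons overlap 219 bases of *Chrac1* on the opposite strand, and the sources used here do not state whether the counting used strand.

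*Drosha* was also lower in 6 of 6 pairs, but by little at 24 h. It stood at 325, 275 and 232 CPM in Gl2-KD and at 325, 247 and 231 CPM in Srrm2-KD at 24 h. At 72 h the values were 357, 278 and 189 CPM in Gl2-KD and 332, 212 and 185 CPM in Srrm2-KD. Experiment 2 carried the widest gap at both times. The log2 changes were −0.054 (SE 0.11) at 24 h and −0.18 (SE 0.11, adjusted p = 0.540) at 72 h. Its partner *Dgcr8* was lower in 4 of 6 pairs, with changes of 0.0050 (SE 0.16) and −0.039 (SE 0.16).

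*Xpo5*, the export receptor, was higher in Srrm2-KD in 4 of 6 pairs. Its log2 changes were 0.033 (SE 0.12) at 24 h and 0.079 (SE 0.12) at 72 h. *Dicer1* was lower in 5 of 6 pairs, with changes of −0.015 (SE 0.11) and −0.15 (SE 0.11). Its partner *Tarbp2* was lower in 4 of 6, with −0.0054 (SE 0.11) and −0.032 (SE 0.11). None of these 3 could be placed on one side of 0, since their intervals reached from −0.40 at the lowest to 0.33 at the highest.

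In the other Argonautes the directions differed. *Ago1* was higher in Srrm2-KD in 5 of 6 pairs. It stood at 104, 72.3 and 69.3 CPM in Gl2-KD against 118, 84.4 and 74.6 CPM in Srrm2-KD at 24 h, all 3 experiments higher. At 72 h it stood at 129, 81.6 and 55.3 CPM against 143, 69.5 and 66.0 CPM, with experiment 2 lower. The log2 changes were 0.17 (SE 0.14) and 0.057 (SE 0.14). *Ago3* was lower in 5 of 6 pairs, with values of −0.095 (SE 0.12) and −0.21 (SE 0.12), and its widest gap was in experiment 2 at 72 h, from 14.8 to 10.6 CPM.

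*Ago4* had values of −0.061 (SE 0.43) at 24 h and 0.15 (SE 0.44) at 72 h, and its 95% interval at 72 h reached from −0.81 to 1.11. The data were compatible with any change of *Ago4* within that interval. *Tnrc6a* had log2 changes of −0.015 (SE 0.099) at 24 h and 0.0027 (SE 0.10) at 72 h, where its 95% interval was −0.22 to 0.22.

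**Figure D4:**
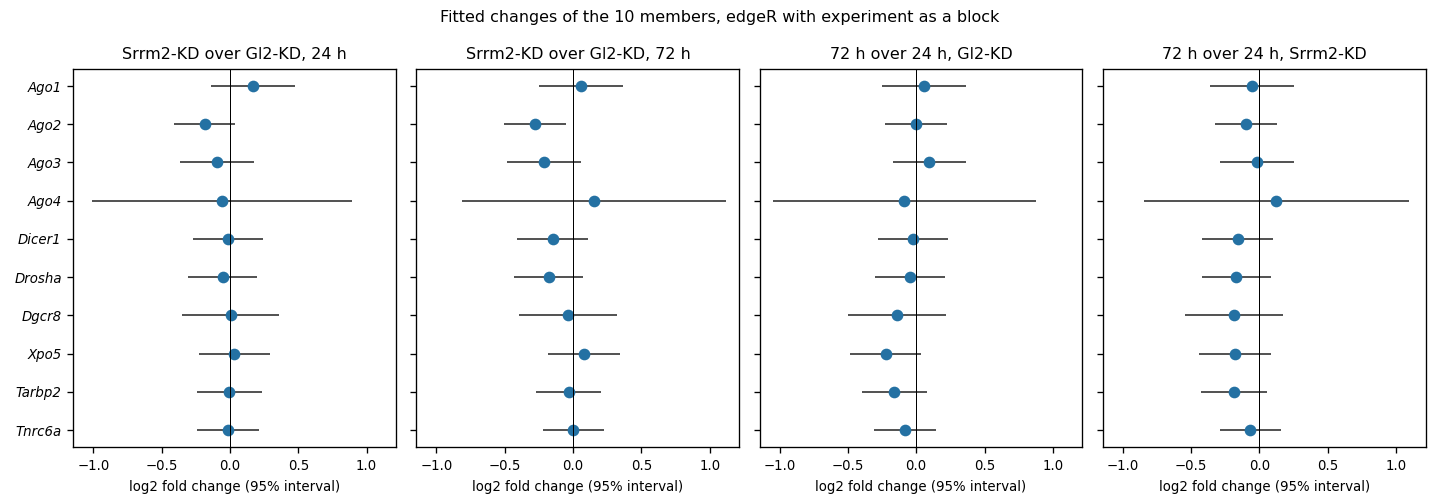
Fitted log2 fold changes (points, horizontal axis) with 95% intervals (lines) of the 10 genes (vertical axis) for the knockdown against its control at both times, and at 72 h against 24 h in Gl2-KD and in Srrm2-KD. Of the 40 intervals, that of Ago2 at 72 h is the only one that leaves out 0, and that of Ago4 is the widest in each panel.

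The comparison of 72 h with 24 h set the cultures with 2 transfections against those with 1. No member passed the threshold in Gl2-KD, in Srrm2-KD or in the mean of both. The shares of all genes called were 1.45%, 0.551% and 10.5% (2038 genes, 1071 higher and 967 lower). At an unadjusted p under 0.05 in the mean there were 2 members, *Xpo5* and *Tarbp2*, where 27% of all genes reached that value. The median log2 change of the 10 members in the mean was −0.082, beside 0.010 over all genes.

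*Xpo5* was lower at 72 h in 5 of 6 pairs. In Gl2-KD it went from 181, 152 and 131 CPM at 24 h to 176, 131 and 97.99 CPM at 72 h, lower in all 3 experiments. In Srrm2-KD it went from 187, 147 and 141 CPM to 196, 114 and 118 CPM, with experiment 1 higher. The log2 change was −0.22 in Gl2-KD (SE 0.12), −0.18 in Srrm2-KD (SE 0.12) and −0.20 in the mean (SE 0.082, 95% interval −0.38 to −0.020, edgeR adjusted p = 0.144). Without experiment 1 the mean change was −0.31, with an adjusted p of 0.0590.

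*Tarbp2* was lower at 72 h in 5 of 6 pairs. In Gl2-KD it went from 63.2, 133 and 98.6 CPM to 67.3, 97.5 and 91.1 CPM. In Srrm2-KD it went from 69.8, 122.6 and 97.0 CPM to 66.4, 102 and 82.7 CPM. Experiments 2 and 3 were lower at 72 h with both siRNAs, while the values of experiment 1 stayed close together. The log2 change was −0.16 in Gl2-KD (SE 0.11), −0.19 in Srrm2-KD (SE 0.11) and −0.17 in the mean (SE 0.075, adjusted p = 0.164). Experiments 1 and 2 moved these values, since without experiment 2 the change was −0.033 in Gl2-KD and −0.11 in the mean, and without experiment 1 it was −0.28 and −0.26.

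*Dgcr8* behaved differently in the 3 experiments. In experiment 3 it went from 81.6 to 51.8 CPM in Gl2-KD and from 84.9 to 57.7 CPM in Srrm2-KD. In experiment 1 it went from 111 to 122 CPM and from 111 to 118 CPM, and in experiment 2 from 102 to 107 CPM and from 98.5 to 94.3 CPM. The log2 change was −0.14 in Gl2-KD (SE 0.16) and −0.18 in Srrm2-KD (SE 0.16), and the mean of −0.16 (SE 0.11, adjusted p = 0.396) rested on experiment 3, since it was 0.054 without it. The last 825 bases of the gene lie over *Trmt2a* on the opposite strand.

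*Drosha* had log2 changes with time of −0.045 in Gl2-KD (SE 0.11) and −0.17 in Srrm2-KD (SE 0.11), and was lower at 72 h in 3 of 6 pairs. As with *Dgcr8*, experiment 3 was lower at 72 h with both siRNAs. Within experiments these 2 partners varied together, with Pearson's r = 0.81 over the 12 libraries after each experiment's mean was taken off, given as a description since the libraries share groups. This was not particular to partners, since *Xpo5* and *Tnrc6a* had r = 0.86 and the partners *Dicer1* and *Tarbp2* had 0.025. *Dicer1* went from 96.9 to 82.8 CPM in Gl2-KD and from 99.6 to 75.4 CPM in Srrm2-KD in experiment 1, and was higher at 72 h in experiment 3 with both siRNAs. Its log2 changes were −0.024 (SE 0.11) and −0.16 (SE 0.11).

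The Argonautes gave no common direction with time. The log2 change of *Ago2* was −0.0043 in Gl2-KD (SE 0.10, 95% interval −0.22 to 0.21) and −0.10 in Srrm2-KD (SE 0.10). *Ago1* had values of 0.054 (SE 0.14) and −0.056 (SE 0.14), and *Ago3* of 0.097 (SE 0.12) and −0.018 (SE 0.12). For *Ago4*, experiment 1 went from 0.537 to 0.302 CPM in Gl2-KD and experiment 3 from 0.392 to 0.693 CPM, opposite ways within 1 group, and the fitted changes were −0.086 (SE 0.43) and 0.13 (SE 0.44). *Tnrc6a* had values of −0.082 (SE 0.099) and −0.065 (SE 0.10), lower in 5 of 6 pairs.

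The change with time was also compared between the siRNAs, to ask whether it depended on the duplex. No member passed the threshold, nor did any of the 19410 genes (0%) with edgeR, 319 of which (1.64%) had an unadjusted p under 0.05, while DESeq2 called 2. The smallest unadjusted p of a member was 0.419, for *Dicer1*. The intervals were wide, reaching from −0.41 to 0.21 for *Ago2*, so the data were compatible with differences between the siRNAs anywhere in that range.

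Other factors of the pathway were counted in lists fixed with the members, when earlier results of these data were known. Of 15 cofactors of processing, export and loading, which include *Ddx5*, *Ran*, *Prkra* and the Hsp90 genes, 0 passed edgeR's threshold with time in the mean of both siRNAs (4 at an unadjusted p under 0.05), where 10.5% of all genes passed it and 27% were at that p. The count was also 0 in the knockdown comparisons at 24 h (0 at that p) and at 72 h (1 at that p). Of 19 GW182 paralogues, deadenylases and poly(A)-binding proteins, 1 rose at 72 h and 0 fell, where 5.52% of all genes were called higher and 4.98% lower, so the count was near that of all genes. This was *Cnot8*, a catalytic subunit of the Ccr4-Not deadenylase (log2 change 0.34, SE 0.078, adjusted p = 0.0225), higher in 6 of 6 pairs, as were 8.93% of all genes. The other GW182 genes had values of 0.098 for *Tnrc6b* (SE 0.086) and −0.22 for *Tnrc6c* (SE 0.072, adjusted p = 0.0794). In Srrm2-KD against Gl2-KD 0 of the 19 passed the threshold. At an unadjusted p under 0.05 there were 1 at 24 h, 6 at 72 h and 7 over both times. The shares of all genes at that p were 2.62%, 12.9% and 13.6%.

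Of 16 decapping and P-body factors, 2 fell at 72 h and 0 rose, beside the same 4.98% and 5.52% of all genes. *Mov10*, an RNA helicase bound to Argonautes, stood at 394, 352 and 333 CPM at 24 h and 290.4, 275 and 320.0 CPM at 72 h in Gl2-KD, and went from 396, 306 and 256 CPM to 193, 149 and 253 CPM in Srrm2-KD. All 6 pairs were lower at 72 h, least in experiment 3. Its log2 change was −0.49 (SE 0.12, adjusted p = 0.0321). *Ajuba*, a LIM protein of P-bodies, fell by 0.65 on the log2 scale (SE 0.090, adjusted p = 0.00281), lower in 6 of 6 pairs, as were 7.97% of all genes. In Srrm2-KD against Gl2-KD at 72 h, *Mov10* had a value of −0.58 (SE 0.18, adjusted p = 0.226). In that comparison 0 of the 16 passed the threshold at 24 h, at 72 h or over both times. At an unadjusted p under 0.05 there were 1, 3 and 3, beside 2.62%, 12.9% and 13.6% of all genes.

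Of 7 genes that control let-7 precursors, tail RNA or degrade microRNAs, 1 fell at 72 h, where 4.98% of all genes were called lower. This was *Trim71* (log2 change −0.38, SE 0.089, adjusted p = 0.0247). In Srrm2-KD against Gl2-KD none of the 7 passed the threshold. At an unadjusted p under 0.05 there were 0 at 24 h, 2 at 72 h and 3 over both times. The shares of all genes at that p were 2.62%, 12.9% and 13.6%. In the mean of both times all 7 values were below 0 (share of all genes not given here), with a median of −0.22 beside −0.0031 over all genes. By pairs they were less uniform, since *Zswim8* was higher in 3 of 6 and *Lin28b* and *Trim71* in 2 of 6. *Zswim8* also stood at 0 CPM in experiment 2 of Srrm2-KD at 72 h. *Dis3l2*, the exonuclease of uridylated precursors, had a value of −0.25 (SE 0.091, adjusted p = 0.264). The uridylyltransferases *Tut4* and *Tut7* had values of −0.22 (SE 0.086) and −0.23 (SE 0.096). These 3 and *Lin28a* (−0.13, SE 0.079, adjusted p = 0.516) were lower in 6 of 6 pairs, as were 7.25% of all genes.

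The PIWI clade of the Argonaute family, which acts in the germline, was near the lower limit of the table except for *Piwil2*. *Piwil2* stood between 11.02 and 19.5 CPM, *Piwil1* between 0.0528 and 0.827 CPM and *Piwil4* between 0.246 and 0.857 CPM. None of the 3 passed edgeR's adjusted threshold in any comparison, and at an unadjusted p under 0.05 there were 2 in the knockdown over both times, where 13.6% of all genes were, and 1 over time, where 27% were. *Piwil1*, lower in Srrm2-KD in 6 of 6 pairs, had a value of −0.88 over both times (SE 0.38, adjusted p = 0.345), and it was also lower at 72 h in 6 of 6 pairs (−1.07, SE 0.39, adjusted p = 0.107). *Piwil2* had a value of 0.25 in the knockdown (SE 0.11, adjusted p = 0.342).

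The comparison over time called 2038 genes with all 12 libraries, 0 without experiment 2, 1307 without experiment 3 and 2755 without experiment 1. Without experiment 2 the changes of the genes named from these lists had the same direction, at −0.56 for *Ajuba*, −0.42 for *Mov10*, −0.29 for *Trim71* and 0.33 for *Cnot8*. The summed ESC markers moved with time as well, from between 3635 and 3899 CPM in the 6 libraries at 24 h to between 3095 and 3591 CPM in those at 72 h. The sum of the 4 trophoblast markers went from between 3.28 and 9.47 CPM to between 6.25 and 21.2 CPM. *Krt7* rose most (log2 change 1.80, SE 0.19, adjusted p = 0.00110), but only 2 of the 4 had a log2 change above 0. *Cdx2* and *Elf5* had lower mean CPM at 72 h with both siRNAs. The part of the ESC and trophoblast markers in the changes with time was not tested.

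Known targets were examined as a reading of microRNA activity in polyA+ RNA, in which mature microRNAs themselves are not measured. Targets are recognised mainly by the seed, bases 2 to 8 of the microRNA. The following mature sequences (RefSeq, GRCm38.p6) show the seeds behind the target lists, with the seed in capitals.
let-7a-5p: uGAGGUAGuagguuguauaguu
let-7g-5p: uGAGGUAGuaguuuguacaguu
miR-291a-3p: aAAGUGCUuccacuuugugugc
miR-294-3p: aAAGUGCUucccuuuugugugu
miR-302b-3p: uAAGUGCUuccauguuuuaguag
miR-293-3p: aGUGCCGCagaguuuguagugu
The let-7 members shared 1 seed, and so did miR-291a, miR-294 and miR-302b, while miR-293 of the same cluster carried another.

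Of 17 let-7 targets, 5 fell at 72 h in the mean of both siRNAs and 0 rose, beside 4.98% of all genes called lower. The median log2 change of the 17 was −0.21, beside 0.010 over all genes. *Myc*, a transcription factor of growth and proliferation, stood at 49.6, 48.0 and 25.7 CPM at 24 h and 25.02, 11.98 and 5.10 CPM at 72 h in Gl2-KD. In Srrm2-KD it stood at 46.2, 45.2 and 29.1 CPM at 24 h and 29.7, 17.1 and 10.7 CPM at 72 h. Every pair was lower at 72 h, and the log2 change was −1.46 (SE 0.18, adjusted p = 0.00192).

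*Cdk6*, a kinase of the G1 phase, went from 80.4, 47.5 and 35.8 CPM to 51.6, 31.6 and 27.9 CPM in Gl2-KD, and from 76.2, 48.5 and 38.1 CPM to 49.6, 28.0 and 24.4 CPM in Srrm2-KD. Its log2 change was −0.61 (SE 0.064, adjusted p = 0.00110). *Igf2bp1*, an RNA-binding protein, changed by −0.49 (SE 0.096, adjusted p = 0.0122), and *Trim71*, counted above, is also on this list. *Cdc25a*, a phosphatase that drives the cell cycle, changed by −0.28 (SE 0.072, adjusted p = 0.0340) and was chosen beyond the 4 named by rule, to complete the list. These genes are known to respond to much besides let-7, and the part of the microRNA was not tested.

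Of 12 targets of the miR-290-295 and miR-302 families, 1 rose, beside 5.52% of all genes called higher, and 1 fell. *Rbl2*, a retinoblastoma-like protein, went from 8.34, 3.75 and 3.46 CPM to 14.1, 3.91 and 7.03 CPM in Gl2-KD and from 7.07, 4.49 and 5.64 CPM to 16.9, 6.20 and 7.23 CPM in Srrm2-KD. All 6 pairs were higher at 72 h, with a log2 change of 0.65 (SE 0.16, adjusted p = 0.0299). *Lats2*, a kinase of the Hippo pathway, changed by −0.78 (SE 0.16, adjusted p = 0.0138), lower in 6 of 6 pairs. The median of the 12 was 0.065. In Srrm2-KD against Gl2-KD none of the 17 or the 12 targets passed the threshold at 24 h or at 72 h, and the medians at 72 h were −0.14 and −0.15, beside −0.015 over all genes.

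**Figure D5:**
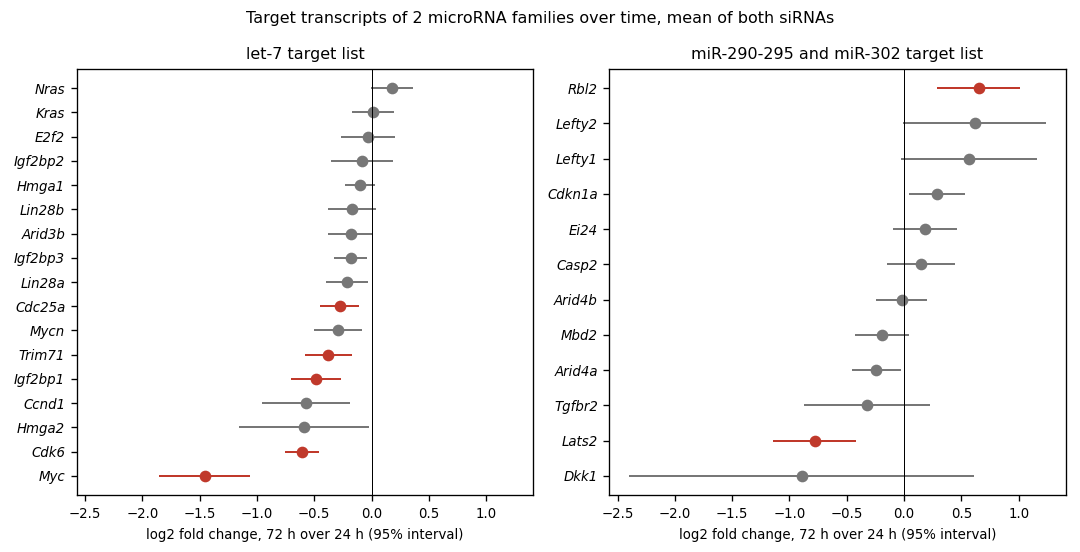
Log2 fold changes from 24 h to 72 h, mean of both siRNAs (points, horizontal axis), with 95% intervals (lines), of the let-7 targets on the left and the targets of the miR-290-295 and miR-302 families on the right, ordered by value. Red marks genes with an edgeR adjusted p below 0.05, which are 5 let-7 targets, all lower, and 1 higher and 1 lower target of the other family.

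Long transcripts that host microRNAs were counted too, of which 18 of 19 were found by symbol and tested. With time 1 fell, near the 4.98% of all genes called lower. This was *Mir124a-1hg* (log2 change −0.74, SE 0.20, adjusted p = 0.0387). In Gl2-KD it went from 17.0, 12.9 and 7.65 CPM to 18.5, 7.43 and 3.34 CPM, and in Srrm2-KD from 14.1, 9.78 and 4.44 CPM to 12.9, 3.37 and 2.26 CPM. Experiments 2 and 3 carried the change, since experiment 1 was higher at 72 h in Gl2-KD. *Mir17hg*, host of the miR-17-92 cluster, had a value of −0.30 (SE 0.14, adjusted p = 0.207).

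MicroRNA genes also lie inside *Dgcr8* and *Srrm2*. Dgcr8 protein is known to bind a pair of hairpins in its own transcript, which the annotation holds as miR-3618 and miR-1306. On the reverse strand of chromosome 16, in exon 2 of *Dgcr8*, miR-3618 lies in the untranslated region before the coding sequence, and miR-1306 in the coding sequence. miR-5125 lies on the forward strand of chromosome 17, inside *Srrm2* but in none of its annotated exons. Their mature sequences (RefSeq, GRCm38.p6, seed in capitals) are given to show which RNAs are meant.
miR-3618-5p: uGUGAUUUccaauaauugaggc
miR-1306-5p: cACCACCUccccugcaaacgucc
miR-1306-3p: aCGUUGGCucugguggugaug
miR-5125: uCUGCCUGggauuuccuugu

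The rows of both hairpins of *Dgcr8* were at 0 in all 12 libraries, beside 4230 to 18884 estimated counts for *Dgcr8* itself. Reads of these exons can be assigned to *Dgcr8*, so the zeros do not say whether the hairpins were cut. *Mir5125* had 122 to 1243 estimated counts. It stood at 3.63, 5.88 and 7.07 CPM in Gl2-KD and 2.53, 1.42 and 1.29 CPM in Srrm2-KD at 24 h, and at 5.44, 7.77 and 9.46 CPM against 1.53, 2.24 and 2.39 CPM at 72 h. It was lower in 6 of 6 pairs, as were *Srrm2* and 7.25% of all genes. The groups did not overlap at either time, for which no share of all genes is given here. Its log2 change over both times was −1.73 (SE 0.24, adjusted p = 0.0276), a comparison in which 0.067% of all genes were called. It was called there in 15 of 28 alternatives. Whether these counts come from a microRNA precursor or from other RNA of the *Srrm2* locus was not tested.

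For *Ago2* and *Dicer1*, the 3 genes with the most similar log2 CPM over the 12 libraries were named. They were *Huwe1* (Pearson's r = 0.997), *Arhgap32* (0.995) and *Kat6a* (0.995) for *Ago2*, and *Phactr2* (0.980), *Ttc28* (0.976) and *Fv1* (0.967) for *Dicer1*. All 6 were higher in experiment 1 than in the others, by log2 differences from 1.03 to 2.00, and 5 of the 6 have a longest transcript over 8000 bases. *Ago2* was higher there by 1.83 and *Dicer1* by only 0.42. The part of the experiments in this likeness was not tested.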

How the data were processed

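PolyA+ RNA of 12 cultures was prepared with a stranded kit and sequenced as 100-bp read pairs. Per the labels and the study's methods, the authors made the deposited estimated counts by pseudo-alignment to GENCODE M24 transcripts (mm10) in Kallisto 0.46.1. No source used here says how transcripts were summed to genes or whether strand was used. Spike-in RNA was added, but the table holds 0 spike-in IDs. Gene names came from GENCODE M21, which matched 42156 of 42450 IDs, and coordinates and lengths from its GRCm38 annotation.

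Estimated counts were rounded to whole numbers, genes with low counts were removed with filterByExpr (minimum count 10, minimum total 15), and TMM factors were computed. Tests used edgeR 4.0.16 quasi-likelihood fits (legacy=TRUE) in R 4.3.3, with 4 groups and the experiment as a block, and Benjamini-Hochberg adjustment over 19410 genes. The authors instead adjusted for the day of RNA processing, which no source used here gives by library, so the experiment number stood in for it. The numbers paired the libraries: after group means were removed, libraries of the same experiment correlated at 0.281 to 0.747 (18 pairs) and those of different experiments at −0.628 to 0.231 (36 pairs). The labels do not tie a number to a day or batch. Replicates are described as independent biological replicates.

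SEs were derived from the quasi-likelihood F, and intervals are 95%. Levels are TMM-scaled CPM, whose group spread is mostly the experiment (common biological coefficient of variation within experiments 0.22). Counting error alone is small at this depth except for genes with few counts, such as *Ago4*, *Piwil1* and *Piwil4*. Such genes also occur in the lists and markers, among them *Zswim8*, *Dkk1*, *H19*, *Mir155hg*, *Cdx2* and *Sox17*. The length trend was a lowess curve (span 0.3) of each gene's deviation from its mean on its longest transcript.

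Alternatives were DESeq2 1.42.0, limma 3.58.1 (voom), other scaling, filters, blocks and dispersion settings, unrounded counts, and omission of single libraries or whole experiments. Offsets for transcript length and a block for each experiment and time together were added after the data were seen. The fit was also run on data simulated from its own model, which cannot show how it handles departures from that model.

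Named genes were all members, *Srrm2*, all PIWI genes and microRNA genes inside members or *Srrm2*, from each pathway list the called genes with the smallest p (up to 4 over time, up to 2 in each knockdown comparison), and the 3 genes most like *Ago2* and *Dicer1*. Other genes given with values (*Tnrc6b*, *Tnrc6c*, *Lin28a*, *Lin28b*, *Zswim8*, *Tut4*, *Tut7*, *Dis3l2*, *Cdc25a*, *Mir17hg*, *Krt7*) were chosen after their values were seen. The members and lists were chosen with earlier results of these data known.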

Additional observations from a re-analysis of the deposited data

How the results depend on the processing

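No member was called in any comparison under any alternative. The paired fit was the one reported, and without the replicate block 0 members were called again, while the whole-table count over time fell from 2038 to 0 genes and that of the knockdown over both times from 13 to 0. With the replicate block for each experiment and time together, 724 genes were called at 72 h and 1124 over both times, against 0 and 13 as reported. Over time, the block that set experiment 1 against the others called 306 genes and DESeq2 3304. In Gl2-KD and Srrm2-KD alone, the alternatives that kept all libraries called 0 to 1338 and 0 to 1061 genes. In the knockdown comparisons they called 0 to 25 genes at 24 h, 0 to 724 at 72 h and 0 to 1124 over both times (DESeq2 25, 542 and 733). Leaving out a library or an experiment gave 0 to 10 genes at 24 h, 0 to 55 at 72 h, 0 to 387 genes over time in Gl2-KD, 0 to 135 in Srrm2-KD, 0 to 2755 in their mean and 0 to 288 for the knockdown over both times, the last when experiment 1 of Srrm2-KD at 24 h was left out. No gene was called over time without experiment 2, and leaving out any single library left 651 to 2040. The causes were not tested.

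Among the member changes given above, signs turned in the following settings that kept all libraries of a comparison. With legacy=FALSE, *Ago4* was 0.025 at 24 h and −0.066 at 72 h in the knockdown comparison, and 0.016 (Gl2-KD) and −0.076 (Srrm2-KD) over time, where *Ago3* was 0.0013 in Srrm2-KD. With limma-voom, *Dgcr8* was −0.0064 at 24 h, and *Ago3* 0.038 and *Ago4* −0.042 over time in Srrm2-KD. With length offsets, *Dicer1* was 0.022 and *Tnrc6a* 0.021 at 24 h, *Ago2* 0.027 over time in Gl2-KD and *Ago3* 0.048 over time in Srrm2-KD. *Dgcr8* was −0.0051 at 24 h in the fit of only 6 libraries, −0.0032 with library totals only, −0.0022 without the replicate block and −0.0019 with the block of experiment 1 against the others, and *Tarbp2* 0.0066 with no filter. Without the replicate block, *Ago1* was 0.0063 and *Ago3* 0.059 over time in Srrm2-KD, and with the block of experiment 1 against the others *Ago4* was 0.024 over time in Gl2-KD and *Tnrc6a* −4.9e-05 at 72 h. With the block for each experiment and time together *Tnrc6a* was −0.0020 at 72 h.

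Leaving out libraries or experiments in turn gave ranges that crossed 0 for the following member changes given above. At 24 h these were −0.39 to 0.22 for *Ago4*, −0.11 to 0.063 for *Dicer1*, −0.18 to 0.14 for *Dgcr8*, −0.045 to 0.10 for *Xpo5*, −0.11 to 0.10 for *Tarbp2* and −0.056 to 0.048 for *Tnrc6a*. At 72 h they were −0.10 to 0.19 for *Ago1*, −0.32 to 0.70 for *Ago4*, −0.23 to 0.057 for *Dgcr8*, −0.046 to 0.20 for *Xpo5*, −0.14 to 0.020 for *Tarbp2* and −0.12 to 0.095 for *Tnrc6a*. Over time in Gl2-KD they were −0.072 to 0.23 for *Ago1*, −0.089 to 0.050 for *Ago2*, −0.66 to 0.28 for *Ago4*, −0.094 to 0.073 for *Dicer1*, −0.14 to 0.069 for *Drosha* and −0.28 to 0.10 for *Dgcr8*. In Srrm2-KD they were −0.23 to 0.042 for *Ago1*, −0.15 to 0.080 for *Ago3*, −0.26 to 0.59 for *Ago4*, −0.32 to 0.012 for *Dgcr8* and −0.19 to 0.028 for *Tnrc6a*, and in the mean −0.30 to 0.054 for *Dgcr8*.

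The differences of experiment 1 fell with length offsets to 0.17 for *Ago1*, 0.74 for *Ago2*, 0.084 for *Ago3*, −0.43 for *Dicer1*, 0.32 for *Drosha*, 0.21 for *Xpo5* and 0.018 for *Tnrc6a*. With library totals only, *Ago2* was at 1.94. For *Dgcr8* the difference was 0.77 against experiment 3 alone and 0.20 against experiment 2 alone. By the mean protein-coding transcript, the places by level were *Tarbp2* 1, *Drosha* 2, *Dgcr8* 3, *Xpo5* 4, *Tnrc6a* 5, *Ago1* 6, *Dicer1* 7 and *Ago2* 8. The calls over time of named genes held in 14 (*Rbl2*) to 25 (*Myc*, *Cdk6*, *Ajuba*) of 27 alternatives.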
